A study of Mus musculus with 24 samples.

Results

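The levels of 10 genes of glutathione conjugation and of the NRF2 pathway were followed through 24 mouse liver RNA-seq libraries. They were Nfe2l2, which encodes NRF2, its targets Nqo1, Gclc and Gclm, and the glutathione transferase genes Gsta2, Gsta4, Gstm1, Gstm2, Gstm3 and Gstp1. They were found by gene name among the 31027 loci of the deposited table, and each of the 10 had a single locus carrying no other name. All 10 had a mean of at least 1 FPKM (mapped fragments scaled to the length of the transcript and to the library's total) and so were among the 10562 loci tested. No library listed any of them at 0.

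The study fed mice a high fat diet or chow for 16 weeks and asked how the loss of the stress-activated kinases JNK1 and JNK2 from the liver bears on gene expression. All mice were C57BL/6J and all carried Alb-Cre, a Cre transgene under the albumin promoter that recombines floxed alleles in hepatocytes. Beside it, Jnk1Jnk2 livers were flox/flox for both kinase genes, Jnk1 livers were Jnk1 flox/flox, Jnk2 livers were Jnk2 flox/flox, and control livers carried the transgene only. Each genotype was sampled on both diets, which gave 8 groups of 3 libraries. The age and sex of the mice are not given in the sources used here, and nothing states whether each replicate came from its own mouse. The p-values below therefore cover only the spread among libraries within groups, pooled over all 8 groups, part of which may be technical. For a given gene, tight and widely spread groups thus share the same variance.

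NRF2 is a transcription factor of the cap'n'collar family that is kept low by the adaptor KEAP1, which hands it to a CUL3 ubiquitin ligase for degradation. Oxidants and electrophiles disable KEAP1, and NRF2 then gathers in the nucleus, pairs with small MAF proteins and binds antioxidant response elements in genes of glutathione synthesis, quinone reduction and conjugation. The liver uses these enzymes to detoxify drugs and the products of lipid peroxidation. Because NRF2 is governed mostly through its protein, the Nfe2l2 mRNA is not a measure of its activity.

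Both kinase genes were low where the labels say they were deleted. Mapk8, the gene of JNK1, lay between 0.845 and 2.47 FPKM in the 12 libraries lacking it and between 3.38 and 5.77 FPKM in the other 12. Mapk9, the gene of JNK2, lay between 4.33 and 7.79 FPKM in the 12 libraries lacking it and between 9.01 and 11.95 FPKM in the other 12. Whole liver holds cells that Alb-Cre does not reach, and in such tissue fewer cells of a type and less RNA per cell cannot be told apart. The hepatocyte genes Ttr and Apoa1 were at 2229 FPKM or more and 5260 FPKM or more in every library. Apob ran from 101 to 485 FPKM and Tat from 197 to 1483 FPKM. Cps1 ran from 69.9 to 1071 and from 243.5 to 2100 FPKM at its separate loci. Alb was listed at 0 in 4 libraries and Serpina1a in 7, although they reached 28470 and 2372 FPKM in others. Depth relative to the deepest library ranged from 0.301 to 1 and its absolute value is unknown. The 3 high fat Jnk1Jnk2 libraries stood apart: the deviation of a locus from its mean over libraries correlated with transcript length at −0.66 to −0.60, against −0.25 to 0.42 in the other 21 libraries. For calls that use those 3 libraries, and where the value moves much, the value after this length trend was subtracted is given beside the deposited one. The longest coding transcript spans 5589 bases for Gclm, 3423 for Gclc and 2475 for Nfe2l2, and between 821 and 1553 bases for the other 7 genes.

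The 10 genes spanned a wide range of levels. Gstp1 and Gstm1 were the most abundant, at means of 566 and 422 FPKM over all libraries. Gclm averaged 78.1 FPKM, Gclc 62.1 FPKM, Gsta4 33.3 FPKM, Gstm2 29.5 FPKM and Nfe2l2 25.8 FPKM. Nqo1, Gstm3 and Gsta2 were the least abundant, at 5.61, 4.92 and 4.67 FPKM. The steadiest were Nqo1 and Nfe2l2, with coefficients of variation over the 24 libraries of 14.5% for each, and the most variable were Gstm3 at 58.7% and Gsta2 at 56.4%.

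**Figure D1:**
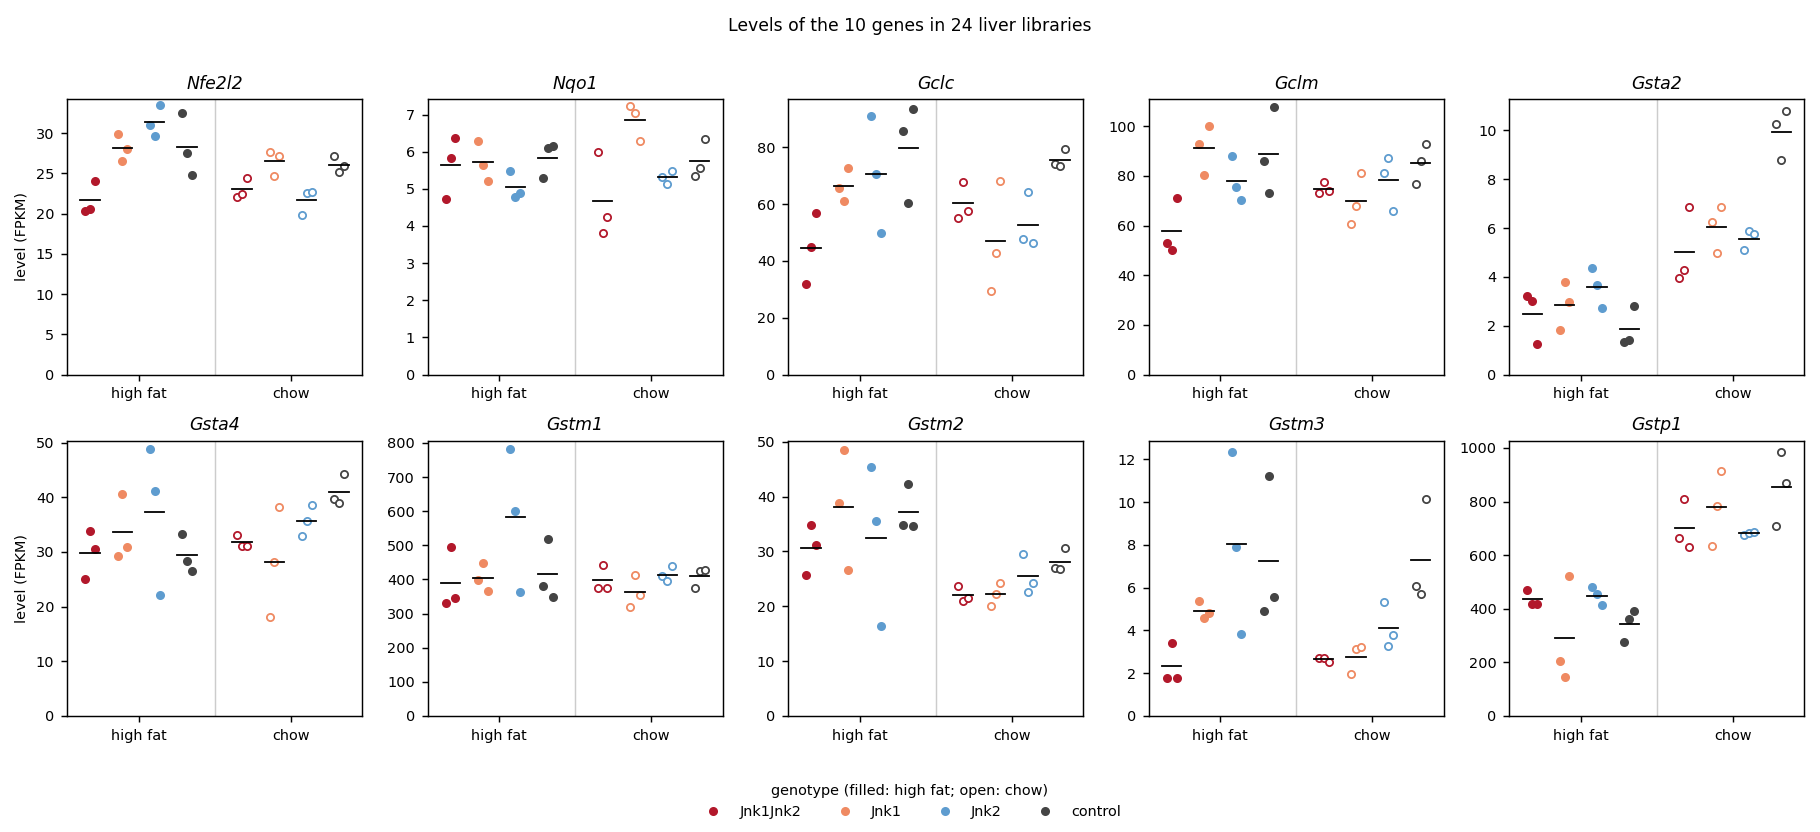
Level in FPKM (vertical axis, from 0) of each gene in each of the 24 libraries, with points for libraries and a line for the mean of each group of 3; filled points are high fat and open points chow, and within each diet the groups run Jnk1Jnk2, Jnk1, Jnk2 and control from left to right. Every high fat library lies below every chow library for Gstp1, and the 3 chow control libraries lie above all others for Gsta2.

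The comparison of each knockout with control asks which of these genes respond to loss of the kinases. On the high fat diet, 4 of the 10 genes fell in Jnk1Jnk2 livers relative to control livers and none rose (limma, Benjamini-Hochberg adjusted over all loci tested), in a comparison in which 51.2% of all loci were called. These were Nfe2l2, Gclc, Gclm and Gstm3. A share of 4 in 10 is slightly below that background. The median change of the 10 was −0.19 against −0.07 over all loci. With the length trend subtracted 5 of the 10 fell and none rose, where 33.4% of all loci were called. In Jnk1 livers on high fat none of the 10 passed the test, and none reached an unadjusted p under 0.05, where 0.227% of all loci were called. In Jnk2 livers on high fat none passed and 1, Gsta2, reached an unadjusted p under 0.05, where 12.4% of all loci were called. On chow none passed in any genotype: the share of all loci called was 0.161% for Jnk1Jnk2, 2.20% for Jnk1 and 0.454% for Jnk2, and the counts at an unadjusted p under 0.05 were 3, 4 and 3 of the 10 genes in that order. Both Gsta2 and Gstm3 were among them in each genotype. On chow, 1334 of the 10562 loci tested reached an unadjusted p under 0.05 for Jnk1Jnk2, 1503 for Jnk1 and 1390 for Jnk2. On high fat the matching counts over all loci were 1253 for Jnk1 and 2922 for Jnk2. The median change of the 10 on chow was −0.30 in Jnk1Jnk2, −0.31 in Jnk1 and −0.23 in Jnk2 livers, against −0.07, 0.01 and −0.04 over all loci. The 3 genotypes on a diet share their control libraries.

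**Figure D2:**
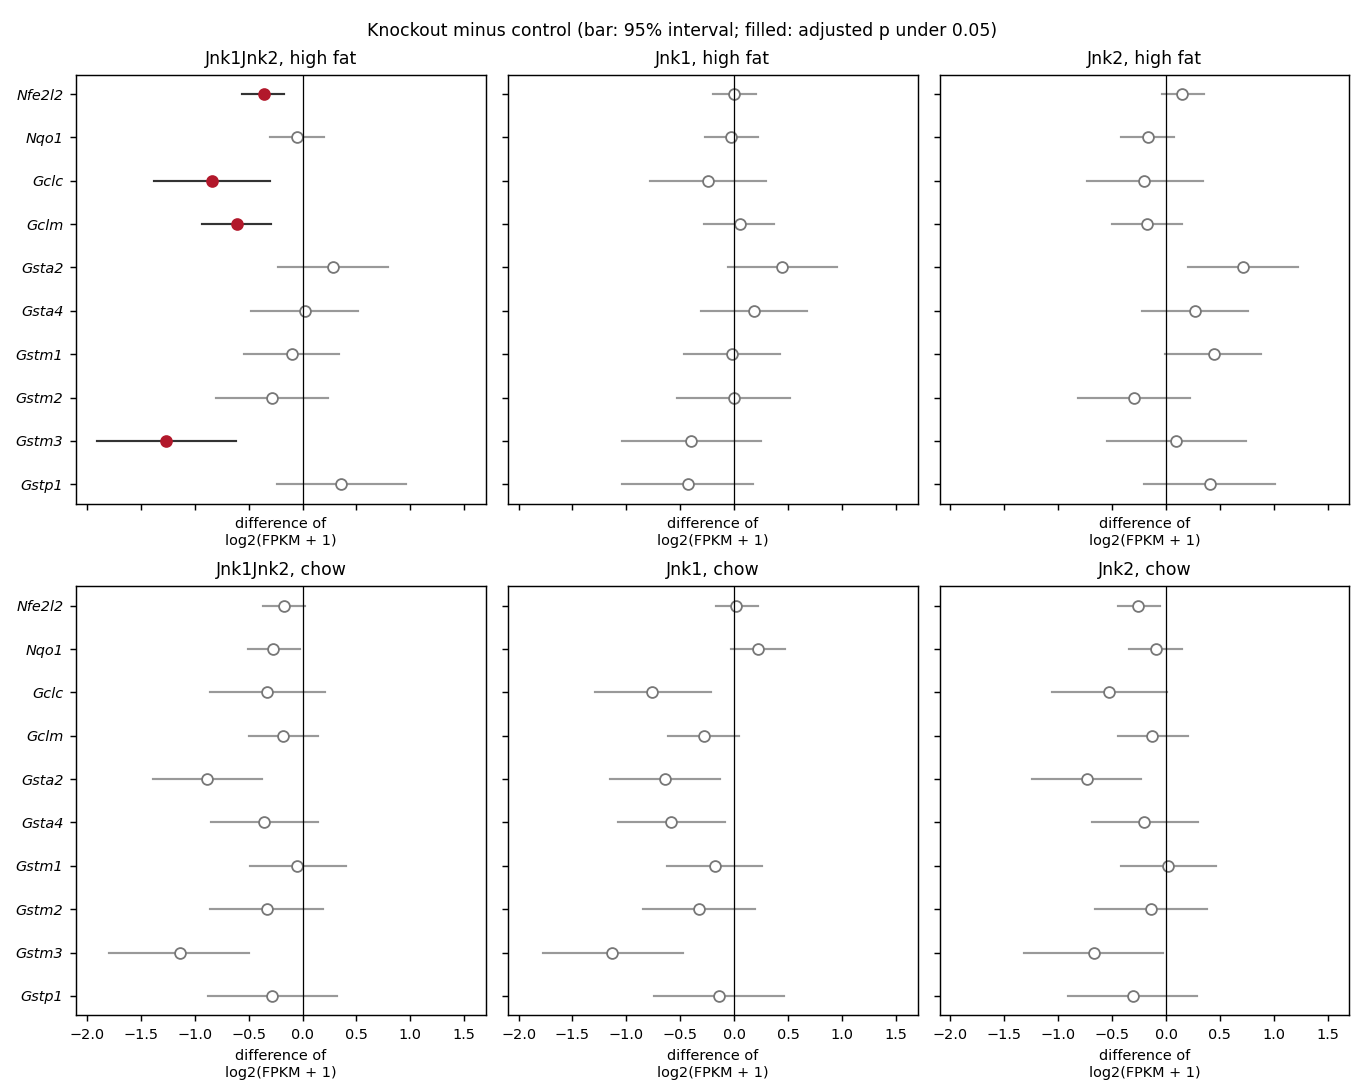
Difference of log2(FPKM + 1), knockout minus control, for each gene (rows) in each genotype on high fat (upper panels) and chow (lower panels), with points for estimates and bars for 95% intervals; filled points passed the test. The 4 filled points are all in the high fat Jnk1Jnk2 panel and lie between −1.27 and −0.36.

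Nfe2l2 (chr2:75675519-75704641 on mm10) was measured at 20.3, 20.6 and 24.1 FPKM in Jnk1Jnk2 livers on high fat, against 32.5, 27.5 and 24.8 FPKM in control livers. The 3 knockout libraries lay below all 3 control libraries, with the nearest pair close together. The level fell by 0.36 ± 0.09 on the log2(FPKM + 1) scale (SE; limma, adjusted p = 0.00329), and with the length trend subtracted the change was −0.38 (adjusted p = 0.00398). In a fit of only these groups the adjusted p was 0.0676. High fat Jnk1 livers had 29.9, 26.5 and 28.0 FPKM and high fat Jnk2 livers had 31.0, 29.6 and 33.5 FPKM, and both overlapped control. On chow, Jnk1Jnk2 livers had 22.1, 22.5 and 24.5 FPKM, Jnk1 livers 27.7, 24.7 and 27.2 FPKM, Jnk2 livers 19.8, 22.6 and 22.6 FPKM and control livers 27.1, 25.2 and 25.9 FPKM. The Jnk1Jnk2 and Jnk2 libraries were below every control library on chow, but their changes of −0.17 ± 0.09 (adjusted p = 0.456) and −0.26 ± 0.09 (adjusted p = 0.231) did not pass. The group means ran from 31.4 ± 1.96 FPKM in high fat Jnk2 to 21.7 ± 2.09 FPKM in high fat Jnk1Jnk2 (SD, n = 3 each). In that order the only neighbours whose libraries did not overlap were chow control and chow Jnk1Jnk2.

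The stretch before the start of Nfe2l2 is shown because, as deposited, the gene changed with its own reported targets Gclc and Gclm. Of these, Gclm did not pass with the length trend subtracted. RefSeq gave a stretch before the start for 8 of the 10 genes (GRCm38.p6), of which 250 bases were used, and Gclc and Gsta4 had no entry. Both strands of each were searched for the core of the antioxidant response element, TGACNNNGC, which 10.2% of 32851 promoters of the same table hold, and for the AP-1 site TGANTCA, which binds JUN, the substrate after which JNK is named, and which 6.75% hold. The motifs can overlap. Capitals mark a match, here to the antioxidant response element core at bases −240 to −232 from the start, in chr2:75704664-75704913 on the minus strand.
Nfe2l2: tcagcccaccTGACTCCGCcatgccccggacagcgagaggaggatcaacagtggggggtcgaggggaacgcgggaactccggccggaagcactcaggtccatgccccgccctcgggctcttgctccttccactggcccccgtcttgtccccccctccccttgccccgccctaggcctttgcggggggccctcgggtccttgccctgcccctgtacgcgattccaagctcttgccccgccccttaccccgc
A match is a description of the letters and no evidence of binding.

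Gclc and Gclm encode the catalytic and modifier subunits of glutamate-cysteine ligase, the enzyme that limits glutathione synthesis. Gclc (chr9:77754535-77794489) was at 32.0, 45.0 and 56.9 FPKM in Jnk1Jnk2 livers on high fat, against 85.6, 60.5 and 93.6 FPKM in control livers. Every knockout library was below every control library, although both groups were widely spread. Gclc fell by 0.84 ± 0.26 (SE; limma, adjusted p = 0.0102), and by 0.67 with the length trend subtracted (adjusted p = 0.0412). Without Jnk1Jnk2 replicate 1, the lowest of its group, the change was −0.63 and the adjusted p 0.0631. High fat Jnk1 livers had 65.7, 61.3 and 72.6 FPKM and high fat Jnk2 livers 91.0, 70.7 and 49.7 FPKM, and the changes of −0.24 ± 0.26 and −0.20 ± 0.26 did not pass.

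On chow, Gclc was at 55.3, 67.9 and 57.5 FPKM in Jnk1Jnk2 livers, 29.6, 43.0 and 68.1 FPKM in Jnk1 livers, 47.6, 64.3 and 46.3 FPKM in Jnk2 livers and 74.0, 73.4 and 79.5 FPKM in control livers. All 9 knockout libraries were below the 3 control libraries, and none of the differences passed. They were −0.33 ± 0.26 (adjusted p = 0.629) in Jnk1Jnk2, −0.76 ± 0.26 (adjusted p = 0.143) in Jnk1 and −0.53 ± 0.26 (adjusted p = 0.387) in Jnk2. Jnk1 replicate 3 was far above the other 2 of its group, and without it the Jnk1 change was −1.06 (adjusted p = 0.034).

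Gclm (chr3:122245592-122266648) was at 52.9, 50 and 70.9 FPKM in Jnk1Jnk2 livers on high fat, against 85.8, 73.3 and 108 FPKM in control livers. The groups did not overlap, but Jnk1Jnk2 replicate 3 came within a few FPKM of the lowest control. Gclm fell by 0.61 ± 0.15 (SE; limma, adjusted p = 0.00285). It is the longest of the 10 transcripts, and with the length trend subtracted the change was −0.17 and did not pass (adjusted p = 0.363). High fat means were 91.2 ± 9.92 FPKM in Jnk1 livers and 78.0 ± 9.17 FPKM in Jnk2 livers, against 89.0 ± 17.5 FPKM in control livers (SD, n = 3 each). Chow means were 74.9 ± 2.30 FPKM in Jnk1Jnk2, 70.1 ± 10.4 FPKM in Jnk1 and 78.2 ± 11.0 FPKM in Jnk2 livers, against 85.1 ± 8.03 FPKM in control livers (SD, n = 3 each), and their ranges overlapped. Both subunits followed each other closely over the 24 libraries (Pearson r = 0.823), the highest r among the 45 pairs of the 10 genes. Both are long transcripts, and the 3 libraries with the strong length trend are among the points.

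The stretch before the start of Gclm (chr3:122245307-122245556, plus strand) also held the core of the antioxidant response element, at bases −134 to −126 and on the opposite strand from the gene.
Gclm: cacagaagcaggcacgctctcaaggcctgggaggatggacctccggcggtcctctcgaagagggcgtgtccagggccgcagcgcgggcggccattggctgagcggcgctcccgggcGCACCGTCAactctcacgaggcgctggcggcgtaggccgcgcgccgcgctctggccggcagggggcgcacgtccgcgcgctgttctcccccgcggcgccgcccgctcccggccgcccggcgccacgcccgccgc
No other gene of the 8 held this core within the window.

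**Figure D3:**
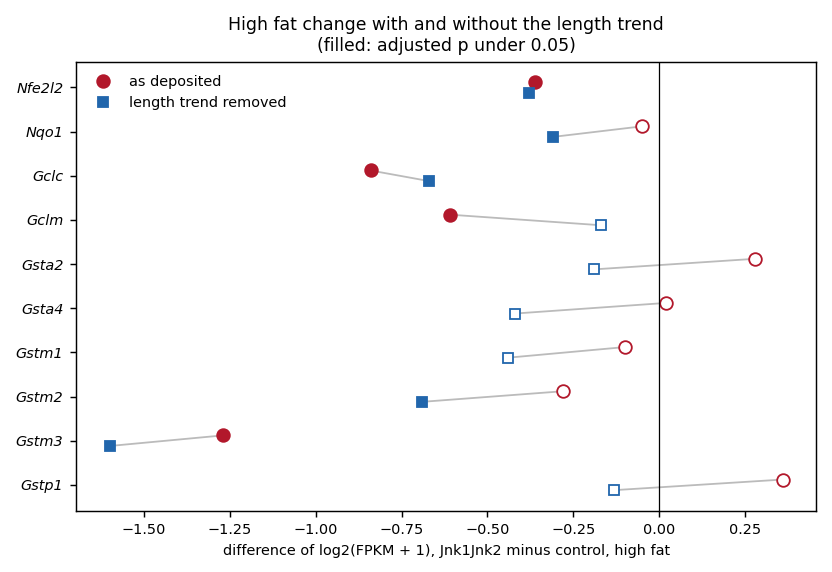
Difference of log2(FPKM + 1) between Jnk1Jnk2 and control livers on high fat (horizontal axis) for each gene (rows), as deposited (circles) and with the length trend subtracted (squares); filled symbols passed the test. Nfe2l2, Gclc and Gstm3 are filled in both, Gclm only as deposited, and Nqo1 and Gstm2 only with the trend subtracted.

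Nqo1 (chr8:107388225-107403205), which reduces quinones to hydroquinones and is the gene most often read as an NRF2 target, stayed between 3.80 and 7.23 FPKM in all libraries. On high fat it was at 4.72, 5.83 and 6.37 FPKM in Jnk1Jnk2 livers, 6.30, 5.63 and 5.20 FPKM in Jnk1 livers, 5.49, 4.79 and 4.90 FPKM in Jnk2 livers and 5.30, 6.09 and 6.14 FPKM in control livers. All 4 groups overlapped. The Jnk1Jnk2 change was −0.05 with a 95% interval of −0.30 to 0.20 (limma, adjusted p = 0.754), and with the length trend subtracted it was −0.31 (adjusted p = 0.0255). On chow the means were 4.68 ± 1.16 FPKM in Jnk1Jnk2, 6.85 ± 0.497 FPKM in Jnk1 and 5.32 ± 0.178 FPKM in Jnk2 livers, against 5.75 ± 0.529 FPKM in control livers (SD, n = 3 each). Chow Jnk1 was the highest of the 8 groups, and its change from control was 0.22 ± 0.12 (adjusted p = 0.427).

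Among the mu class transferases, Gstm3 (chr3:107963696-107969174) moved most with genotype. It was at 1.77, 3.40 and 1.78 FPKM in Jnk1Jnk2 livers on high fat, against 4.92, 11.2 and 5.57 FPKM in control livers, with no overlap. Gstm3 fell by 1.27 ± 0.31 (SE; limma, adjusted p = 0.00209), a mean 3.12 times lower than control, and by 1.60 with the length trend subtracted (adjusted p = 0.00045). The call held with each of the 6 libraries left out in turn, at changes from −1.49 to −0.94. On high fat, Jnk1 livers had 5.36, 4.60 and 4.83 FPKM and Jnk2 livers 12.3, 7.89 and 3.85 FPKM, which overlapped control.

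On chow, Gstm3 was at 2.72, 2.71 and 2.52 FPKM in Jnk1Jnk2 livers, 1.94, 3.11 and 3.21 FPKM in Jnk1 livers, 5.33, 3.27 and 3.80 FPKM in Jnk2 livers and 6.06, 5.69 and 10.1 FPKM in control livers. All 9 knockout libraries were below the 3 control libraries. The changes were −1.14 ± 0.31 in Jnk1Jnk2 (adjusted p = 0.183), −1.13 ± 0.31 in Jnk1 (adjusted p = 0.0632) and −0.67 ± 0.31 in Jnk2 (adjusted p = 0.356). Only the Jnk1 difference crossed the threshold with the length trend subtracted, at −1.17 (adjusted p = 0.0304). The interaction of diet with Jnk1Jnk2 was −0.12 with a 95% interval of −1.04 to 0.79, and −0.56 with the length trend subtracted (adjusted p = 0.362). Up to 15.8% of the 50-base windows of its longest transcript also occur in other mu class transcripts, so reads there cannot be assigned to it alone.

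The stretch before the start of Gstm3 (chr3:107969175-107969424, minus strand) is shown beside the 2 above. As deposited the gene fell with Nfe2l2, Gclc and Gclm, of which Gclm did not pass with the length trend subtracted. Neither motif is in the Gstm3 window.
Gstm3: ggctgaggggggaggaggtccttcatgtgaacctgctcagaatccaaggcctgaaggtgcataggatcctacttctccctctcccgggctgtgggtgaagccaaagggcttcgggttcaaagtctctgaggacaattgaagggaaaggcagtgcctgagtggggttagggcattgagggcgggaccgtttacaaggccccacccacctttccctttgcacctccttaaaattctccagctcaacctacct
It stands in the same cluster on chromosome 3 as Gstm1 and Gstm2.

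Gstm1 (chr3:108012250-108017973) and Gstm2 (chr3:107981702-107986436) did not share the fall of their neighbour as deposited. Gstm1 was at 329, 495 and 344 FPKM in Jnk1Jnk2 livers on high fat, against 382, 518 and 348 FPKM in control livers, which overlapped (−0.10 ± 0.21, adjusted p = 0.726, and 0.01 after median-of-ratios scaling). Gstm2 was at 25.7, 34.7 and 31.2 FPKM in Jnk1Jnk2 livers, against 34.8, 42.3 and 34.6 FPKM in control livers (−0.28 ± 0.25, adjusted p = 0.361). With the length trend subtracted the Gstm2 change was −0.69 and passed (adjusted p = 0.0211), and the Gstm1 change was −0.44 (adjusted p = 0.0917). High fat Jnk2 livers were the most uneven, with 783, 601 and 362 FPKM for Gstm1 and 45.5, 35.5 and 16.3 FPKM for Gstm2. In that group replicate 3 was the lowest at 8 of the 10 genes and replicate 1 the highest at 9. Without replicate 3 the Gstm1 difference from control, 0.44 ± 0.21 in all libraries (adjusted p = 0.187), was 0.74 (adjusted p = 0.0129).

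On chow, Gstm1 varied little between genotypes, with means of 397 ± 39.8 FPKM in Jnk1Jnk2, 362 ± 46.9 FPKM in Jnk1 and 414 ± 22.8 FPKM in Jnk2 livers, against 409 ± 29.0 FPKM in control livers (SD, n = 3 each). Gstm2 averaged 22.1 ± 1.50 FPKM in Jnk1Jnk2, 22.1 ± 2.18 FPKM in Jnk1 and 25.5 ± 3.57 FPKM in Jnk2 livers, against 28.1 ± 2.19 FPKM in control livers (SD, n = 3 each). The Jnk1Jnk2 and Jnk1 libraries lay below all control libraries for Gstm2, at changes of −0.33 ± 0.25 in each (adjusted p = 0.613 and 0.61).

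Gsta4 (chr9:78191966-78209349), an alpha class enzyme that conjugates hydroxynonenal, a product of lipid peroxidation, did not pass in any comparison as deposited. On high fat it averaged 29.8 ± 4.44 FPKM in Jnk1Jnk2, 33.6 ± 6.13 FPKM in Jnk1 and 37.3 ± 13.8 FPKM in Jnk2 livers, against 29.4 ± 3.53 FPKM in control livers (SD, n = 3 each). The Jnk1Jnk2 change of 0.02 turned to −0.42 with the length trend subtracted (adjusted p = 0.16). On chow it was at 33.0, 31.0 and 31.1 FPKM in Jnk1Jnk2 livers, 18.1, 28.1 and 38.2 FPKM in Jnk1 livers, 32.8, 35.6 and 38.6 FPKM in Jnk2 livers and 39.7, 38.9 and 44.3 FPKM in control livers. All 9 chow knockout libraries were below the control libraries, and Jnk1 showed the widest gap, at −0.59 ± 0.24 (adjusted p = 0.237).

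Gsta2 (chr9:78331020-78347145), the other alpha class member, is the gene in whose rat counterpart the antioxidant response element was described. On chow it was at 3.94, 4.30 and 6.87 FPKM in Jnk1Jnk2 livers, 6.23, 4.99 and 6.86 FPKM in Jnk1 livers, 5.10, 5.87 and 5.74 FPKM in Jnk2 livers and 10.2, 8.80 and 10.8 FPKM in control livers. Chow control was above every other library of the study. The chow changes were −0.89 ± 0.24 in Jnk1Jnk2 (adjusted p = 0.189), −0.64 ± 0.24 in Jnk1 (adjusted p = 0.202) and −0.73 ± 0.24 in Jnk2 (adjusted p = 0.188), and none passed. On high fat the control mean was the lowest of the 4 instead of the highest: Jnk1Jnk2 livers had 3.22, 3.00 and 1.27 FPKM, Jnk1 livers 1.82, 3.80 and 2.97 FPKM, Jnk2 livers 4.35, 3.68 and 2.73 FPKM and control livers 1.33, 1.39 and 2.82 FPKM. All 3 knockouts overlapped control there. The Jnk1Jnk2 difference was 0.28 ± 0.24 (adjusted p = 0.347) and turned to −0.19 with the length trend subtracted (adjusted p = 0.596). The Jnk2 difference was 0.71 ± 0.24 (adjusted p = 0.0611). It was 0.94 without control replicate 3 (adjusted p = 0.0205) and 0.85 without Jnk2 replicate 3 (adjusted p = 0.047).

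Gstp1 (chr19:4035411-4037912) encodes the pi class enzyme, whose protein is known to bind and restrain JNK in mouse cells. On high fat it was at 469, 417 and 418 FPKM in Jnk1Jnk2 livers, 203, 146 and 523 FPKM in Jnk1 livers, 479.6, 454 and 414 FPKM in Jnk2 livers and 274, 360.1 and 390.3 FPKM in control livers. The Jnk1Jnk2 and Jnk2 libraries were all above the control libraries, at changes of 0.36 ± 0.29 (adjusted p = 0.306) and 0.41 ± 0.29 (adjusted p = 0.382). With the length trend subtracted the Jnk1Jnk2 change was −0.13 (adjusted p = 0.791). Jnk1 livers held both the lowest and the highest Gstp1 value on high fat, and without replicate 3 the Jnk1 change of −0.43 was −0.97 (adjusted p = 0.0267). On chow it was at 662, 809 and 631 FPKM in Jnk1Jnk2 livers, 635, 783 and 916 FPKM in Jnk1 livers, 676, 684 and 687 FPKM in Jnk2 livers and 709, 985 and 868 FPKM in control livers. Chow Jnk1 overlapped control, chow Jnk1Jnk2 did so in a single library and chow Jnk2 lay just below it.

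The comparison of high fat with chow within a genotype asks which of the genes respond to diet. Gsta2 and Gstp1 fell on the high fat diet in control, Jnk1Jnk2 and Jnk1 livers, and they were the only 2 of the 10 to change with diet in control livers. In control livers 2 of 10 fell and none rose, where 16.3% of all loci were called. In Jnk1Jnk2 livers 3 fell, the third being Gclm, where 56.9% of all loci were called. In Jnk1 livers 2 fell, where 15.0% were called, and in Jnk2 livers 1 gene, Nfe2l2, rose, where 26.0% were called (limma, adjusted over all loci tested). The counts for control and Jnk1 livers are near the background and those for Jnk1Jnk2 and Jnk2 livers are below it.

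**Figure D4:**
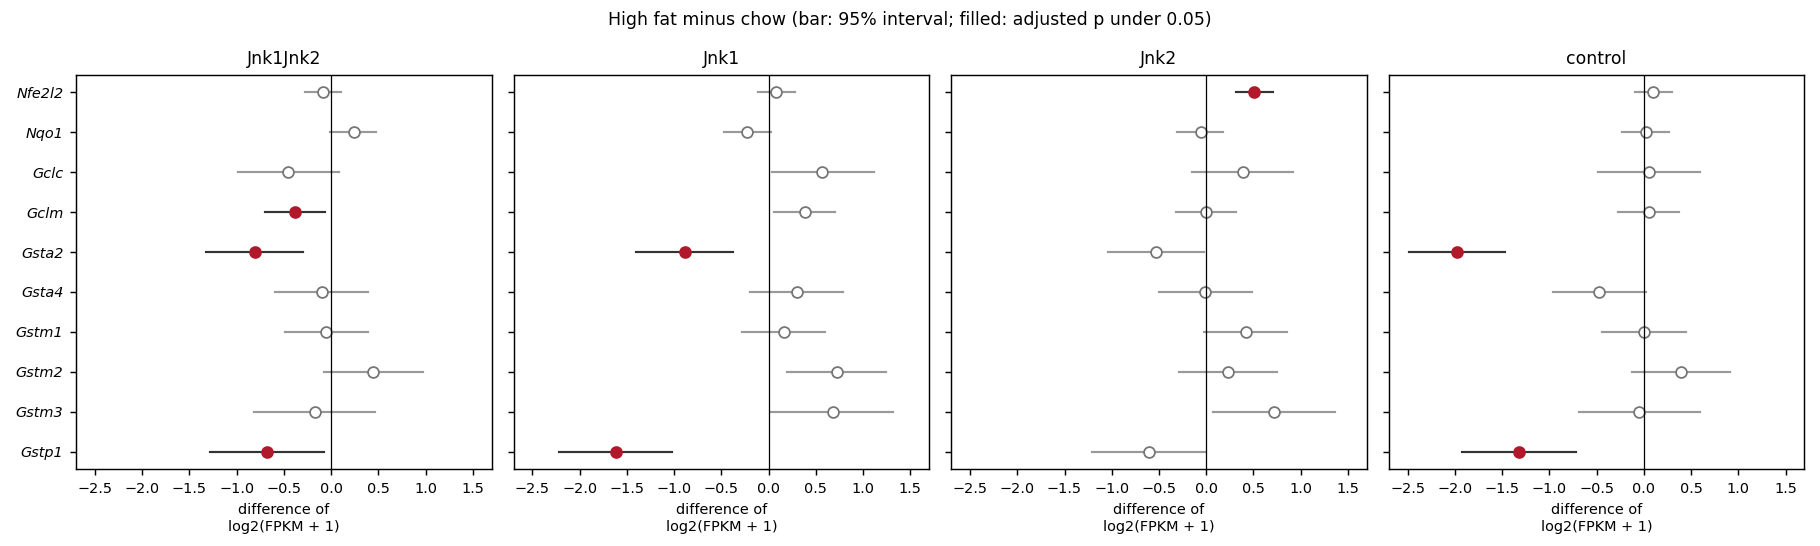
Difference of log2(FPKM + 1), high fat minus chow, for each gene (rows) in Jnk1Jnk2, Jnk1, Jnk2 and control livers (panels from left to right), with points for estimates and bars for 95% intervals; filled points passed the test. Gsta2 and Gstp1 are left of 0 in all 4 panels, filled in 3, and the Gsta2 estimate is lowest in control livers at −1.98.

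The diet difference of Gsta2 was widest in control livers, at 1.85 ± 0.845 FPKM on high fat against 9.95 ± 1.03 FPKM on chow (SD, n = 3 each), a mean 5.38 times lower. The change was −1.98 ± 0.24 (SE; limma, adjusted p = 3.39e-05) and held with each library left out. In Jnk1Jnk2 livers the means were 2.50 ± 1.07 FPKM on high fat and 5.04 ± 1.60 FPKM on chow (−0.81 ± 0.24, adjusted p = 0.00834, and −1.49 with the length trend subtracted). In Jnk1 livers they were 2.87 ± 0.997 FPKM on high fat and 6.03 ± 0.950 FPKM on chow (−0.89 ± 0.24, adjusted p = 0.0187). These calls were less secure: 4 of 6 fits of Jnk1Jnk2 and 3 of 6 of Jnk1 kept them with a library left out. The Jnk1Jnk2 call was lost without replicate 3 of either diet (adjusted p up to 0.0707), and the Jnk1 call without chow replicate 1 or 3 or high fat replicate 1 (adjusted p up to 0.107). The Jnk1 call was also lost in a fit of the Jnk1 groups alone. In Jnk2 livers the means were 3.59 ± 0.814 FPKM on high fat and 5.57 ± 0.413 FPKM on chow, and the change of −0.53 ± 0.24 did not pass (adjusted p = 0.114).

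Whether the Gsta2 response to diet differed from control was tested as an interaction, the knockout difference on high fat minus that on chow. It was 1.17 ± 0.34 for Jnk1Jnk2 (limma, adjusted p = 0.0135), in a contrast in which 34.9% of all loci were called, and Gsta2 was the only 1 of the 10 genes that passed. For Jnk2 it was 1.44 ± 0.34 (adjusted p = 0.0147), where 9.52% of all loci were called and Gsta2 was again the only 1 of the 10. For Jnk1 it was 1.09 ± 0.34 (adjusted p = 0.833), in a contrast in which no locus passed, 0% of those tested. There 2 of the 10 genes, Gsta2 and Gsta4, reached an unadjusted p under 0.05, as did 545 of the 10562 loci tested. The unadjusted 95% intervals, 0.45 to 1.89 for Jnk1Jnk2, 0.37 to 1.81 for Jnk1 and 0.72 to 2.16 for Jnk2, overlap, and the 3 contrasts share the control libraries of both diets. With the length trend subtracted the Jnk1Jnk2 interaction was 0.62 and did not pass (adjusted p = 0.242), and the Jnk2 interaction was 1.52 (adjusted p = 0.0151).

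Gsta2 is a short transcript of 870 bases, and 63.5% of its 50-base windows also occur in other alpha class transcripts. Of all its windows, 44.8% occur in Gsta1, 40.2% in Gm10639 and 38.4% in Gm3776. The FPKM of Gsta2 may therefore include reads of a relative. The Gsta1 locus, which carries 2 names, was listed at no more than 1.29 FPKM and was not among the loci tested. Levels of Gm10639 and Gm3776 are not given here. The stretch before the start of Gsta2 (chr9:78347146-78347395, minus strand) is shown because its diet response was the widest of the 10. These 250 bases hold neither motif, and bases farther upstream were not searched.
Gsta2: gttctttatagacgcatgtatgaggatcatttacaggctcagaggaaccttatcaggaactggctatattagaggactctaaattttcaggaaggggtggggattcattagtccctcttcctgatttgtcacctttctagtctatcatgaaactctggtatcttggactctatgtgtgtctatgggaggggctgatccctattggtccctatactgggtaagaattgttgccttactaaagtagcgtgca

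Gstp1 separated the diets completely. The 12 high fat libraries lay between 146 and 523 FPKM with a median of 415 FPKM, and the 12 chow libraries between 631 and 985 FPKM with a median of 698 FPKM. In control livers Gstp1 averaged 341 ± 60.3 FPKM on high fat and 854 ± 138 FPKM on chow (SD, n = 3 each) and fell by 1.32 ± 0.29 (SE; limma, adjusted p = 0.00428). In Jnk1 livers it averaged 291 ± 203 FPKM on high fat and 778 ± 140.2 FPKM on chow and fell by 1.62 ± 0.29 (adjusted p = 0.000919). In Jnk1Jnk2 livers it averaged 434 ± 29.5 FPKM on high fat and 701 ± 95.1 FPKM on chow, and the change of −0.68 ± 0.29 was at the edge of the threshold (adjusted p = 0.0499). That call was lost with any of the 6 libraries left out, at adjusted p up to 0.15, and the change was −1.38 with the length trend subtracted (adjusted p = 0.00198). In Jnk2 livers it averaged 449 ± 33.2 FPKM on high fat and 682 ± 6.01 FPKM on chow (−0.61 ± 0.29, adjusted p = 0.129). None of the interactions passed, at 0.64 ± 0.41 for Jnk1Jnk2, −0.30 ± 0.41 for Jnk1 and 0.72 ± 0.41 for Jnk2 (0.08 for Jnk1Jnk2 with the length trend subtracted), so a difference in this response between genotypes was not shown.

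The neighbouring Gstp2, a near copy that holds 62.3% of the 50-base windows of Gstp1, was the locus most like it over the 24 libraries (Pearson r = 0.994). It was at 118, 168 and 177 FPKM in control livers on high fat, against 362, 491 and 429 FPKM on chow. By itself Gstp2 fell with high fat in all 4 genotypes (limma). The change was −1.48 ± 0.29 in control livers (adjusted p = 0.00225) and −1.80 ± 0.29 in Jnk1 livers (adjusted p = 0.000451). In Jnk2 livers the change was −0.86 ± 0.29 (adjusted p = 0.0355). In Jnk1Jnk2 livers it was −0.80 ± 0.29 (adjusted p = 0.025), and −1.50 with the length trend subtracted. With both loci summed the diet change was −1.37 in control livers (adjusted p = 0.00345), −0.72 in Jnk1Jnk2 (adjusted p = 0.04), −1.68 in Jnk1 (adjusted p = 0.000722) and −0.69 in Jnk2 (adjusted p = 0.0856). In the sum, which does not depend on how reads were divided between the copies, the same 3 genotypes passed as for Gstp1. The stretch before the start of Gstp1 (chr19:4037913-4038162, minus strand) held an AP-1 site at bases −74 to −68, the only one found among the 8 genes. With the bases that follow, this site reads TGAGTCAGC. That has G where the antioxidant response element core searched for, TGACNNNGC, has C, and otherwise matches it.
Gstp1: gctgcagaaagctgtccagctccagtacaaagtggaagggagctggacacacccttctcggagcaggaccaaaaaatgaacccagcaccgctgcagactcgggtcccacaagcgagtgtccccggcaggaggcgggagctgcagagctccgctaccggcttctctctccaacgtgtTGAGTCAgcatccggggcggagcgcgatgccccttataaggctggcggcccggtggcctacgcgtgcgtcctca

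Nfe2l2 rose with high fat in Jnk2 livers, where it averaged 31.4 ± 1.96 FPKM on high fat and 21.7 ± 1.60 FPKM on chow (SD, n = 3 each). The groups did not overlap, and the change was 0.51 ± 0.09 (SE; limma, adjusted p = 0.000716), held with each library left out, and 0.33 with the length trend subtracted (adjusted p = 0.015). In the other genotypes the diet change was −0.09 ± 0.09 in Jnk1Jnk2, 0.08 ± 0.09 in Jnk1 and 0.10 ± 0.09 in control livers. The interaction of diet with Jnk2 was 0.41 ± 0.13 and did not pass (adjusted p = 0.0563), so the Jnk2 response was not shown to differ from that of control livers. Without high fat control replicate 1 it was 0.51 (adjusted p = 0.0237).

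Gclm fell in Jnk1Jnk2 livers by 0.38 ± 0.15 on high fat (SE; limma, adjusted p = 0.0414), but with the length trend subtracted the change was −0.03 (adjusted p = 0.892), and 1 of 6 fits with a library left out kept the call. In Jnk1 livers Gclm was higher on high fat by 0.38 ± 0.15, Gclc by 0.57 ± 0.26, Gstm2 by 0.72 ± 0.25 and Gstm3 by 0.68 ± 0.31. Each was at an unadjusted p under 0.05, and none passed (adjusted p between 0.0595 and 0.149). In this comparison 3102 of the 10562 loci tested reached an unadjusted p under 0.05. Gstm2 passed there without high fat replicate 3 (0.94, adjusted p = 0.0274) and with the length trend subtracted (0.72, adjusted p = 0.0268), and Gclc passed without chow replicate 3 (0.88, adjusted p = 0.0283). In Jnk2 livers, leaving out high fat replicate 3 brought Gstm1 to 0.73 (adjusted p = 0.00635), Gstm2 to 0.65 (adjusted p = 0.0156) and Gstm3 to 1.11 (adjusted p = 0.00885). The interaction of diet with Jnk1Jnk2 for Gclm, −0.43 ± 0.22, did not pass (adjusted p = 0.13). Without high fat Jnk1Jnk2 replicate 3 it was −0.58 (adjusted p = 0.0406). With the length trend subtracted none of the 10 genes passed in this interaction. Nqo1, Gsta4 and Gstm1 did not pass with diet in any genotype as deposited, and with the length trend subtracted Gsta4 (−0.73, adjusted p = 0.0147) and Gstm1 (−0.57, adjusted p = 0.0256) passed in Jnk1Jnk2 livers. Nqo1 was at 0.24 ± 0.12 in Jnk1Jnk2 livers, which turned to −0.19 with the length trend subtracted (adjusted p = 0.143), and as deposited it passed without replicate 1 of chow (0.40, adjusted p = 0.0048) or of high fat (0.34, adjusted p = 0.0265). The diet changes in control livers were 0.02 ± 0.12 for Nqo1, −0.47 ± 0.24 for Gsta4 and 0.00 ± 0.21 for Gstm1.

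Marker sums of other liver cells differed between some of the groups. The endothelial and stellate sums were among those that did so between high fat Jnk2 and control livers. Summed FPKM of 6 of 6 cholangiocyte markers was 35.2, 54.1 and 62.9 in Jnk1Jnk2 livers on high fat, against 25.4, 18.2 and 21.9 in control livers, with Krt19 at no more than 2.21 FPKM in any library and Cftr listed at 0 in 6. That sum is mostly Spp1, which ran from 12.8 to 60.3 FPKM over the 24 libraries while none of the other 5 markers passed 3.89 FPKM, and Spp1 is also expressed by other cells. The sum of the 7 of 8 macrophage and Kupffer cell markers found was 235, 205 and 209.7 in Jnk1Jnk2 livers, against 164, 179.9 and 196 in control livers. Endothelial markers summed to 69.1, 74.0 and 82.6 in Jnk1Jnk2 livers, against 51.4, 56.0 and 57.0 in control livers. Stellate cell markers overlapped, at 103, 126 and 181 in Jnk1Jnk2 livers and 102, 89.8 and 118 in control livers. Total FPKM was also higher in high fat Jnk1Jnk2 libraries, at 849000, 873400 and 852100, against 634800, 696300 and 668900 in high fat control libraries. The marker sums were adjusted neither for these totals nor for the length trend. Macrophage markers were also higher on high fat than on chow: in control livers the sum was 164, 179.9 and 196 on high fat, against 86.0, 133 and 126 on chow. In Jnk2 livers, where Nfe2l2 rose with diet, the macrophage sum was 163, 179 and 245 on high fat, against 118, 113 and 88.4 on chow. There the stellate sum was 144.5, 120.1 and 156 on high fat, against 87.0, 90.9 and 85.1 on chow, and the endothelial sum was 79.3, 77.5 and 79.9 on high fat, against 53.4, 50.8 and 47.8 on chow. The part of these cells in the changes of the 10 genes was not tested.

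Other genes of the pathway were taken from lists. Of 14 other glutathione transferase loci tested, 7 rose and none fell in Jnk1Jnk2 livers on high fat, with a median change of 0.36 against −0.07 over all loci. Over all loci 51.2% were called, 2072 higher and 3338 lower. After the length trend was subtracted 1 of the 14 rose and 1 fell, where 33.4% of all loci were called. Gstt2, a theta class enzyme, was the one that rose in both: it was at 138, 138 and 141 FPKM in Jnk1Jnk2 livers, against 44.6, 47.1 and 49.7 FPKM in control livers (1.55 ± 0.11, adjusted p = 1.53e-08, and 1.48 with the trend subtracted). Gstt2 also rose in Jnk2 livers on high fat by 0.69 ± 0.11 (adjusted p = 0.000361) and in Jnk1 livers on chow by 0.58 ± 0.11 (adjusted p = 0.00628). With diet, Gstt2 fell in control livers by 0.61 ± 0.11 (adjusted p = 0.000756) and Mgst3, a microsomal transferase, rose by 0.80 ± 0.25 (adjusted p = 0.0359). In all, 3 of these 14 rose and 3 fell with high fat in control livers, where 16.3% of all loci were called.

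Of 25 loci of 24 other NRF2 targets, 11 rose and 5 fell in Jnk1Jnk2 livers on high fat (51.2% of all loci called), with a median change of 0.26 against −0.07 over all loci. After subtraction of the length trend 6 rose and 4 fell (33.4% of all loci called). Blvrb, a biliverdin reductase, rose by 1.05 ± 0.14 (limma, adjusted p = 1.24e-05) and by 0.63 with the trend subtracted, and the carboxylesterase gene Ces1g fell by 1.19 ± 0.35 (adjusted p = 0.00782) and by 1.23. In Jnk2 livers on high fat, where 12.4% of all loci were called, 6 of the 25 rose and none fell, among them Fth1, the ferritin heavy chain, at 0.61 ± 0.09 (adjusted p = 0.000329). With high fat in control livers, where 16.3% of all loci were called, none of the 25 rose and 5 fell, among them the carbonyl reductase gene Cbr1 at −0.94 ± 0.15 (adjusted p = 0.000413).

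Of 10 NRF2 regulators and partners, 2 rose and 6 fell in Jnk1Jnk2 livers on high fat (51.2% of all loci called), and with the length trend subtracted 1 rose and 2 fell (33.4%). Cul3, the scaffold of the ligase that degrades NRF2, fell by 0.75 ± 0.12 (limma, adjusted p = 5.05e-05) and by 0.39 with the trend subtracted (adjusted p = 0.00404). Gsk3b, a kinase that marks NRF2 for degradation, fell by 0.76 ± 0.09 (adjusted p = 3.48e-06), and with the trend subtracted its change was −0.16 (adjusted p = 0.151). Maff, a small MAF partner, rose by 0.95 ± 0.31 in Jnk1Jnk2 livers (adjusted p = 0.0162) and by 1.11 ± 0.31 in Jnk2 livers (adjusted p = 0.0262), and it was at 1.74 ± 1.01 FPKM in high fat control livers (SD, n = 3).

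Of 18 genes of glutathione synthesis, supply and use, 8 rose and 2 fell in Jnk1Jnk2 livers on high fat (51.2% of all loci called), and 7 rose and 1 fell with the length trend subtracted (33.4%). Gpx3, a glutathione peroxidase, rose by 1.06 ± 0.30 (limma, adjusted p = 0.00682), and Cdo1, which oxidises cysteine, fell by 0.42 ± 0.10 (adjusted p = 0.00183), and by 0.67 with the trend subtracted. With high fat in control livers 2 of the 18 rose and 7 fell (16.3% of all loci called). Cth, which makes the cysteine that glutamate-cysteine ligase uses, fell with high fat in all 4 genotypes, with changes of −1.19 ± 0.23 in Jnk1Jnk2, −2.06 ± 0.23 in Jnk1, −1.33 ± 0.23 in Jnk2 and −1.46 ± 0.23 in control livers (adjusted p at most 0.000533).

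Genes of other xenobiotic receptors and their targets included large diet changes. Cyp2b9, a cytochrome P450 gene of the Cyp2b family, rose with high fat in all 4 genotypes. The changes were 5.08 ± 0.65 in Jnk1Jnk2, 6.65 ± 0.65 in Jnk1, 5.04 ± 0.65 in Jnk2 and 5.97 ± 0.65 in control livers (limma, adjusted p at most 3.72e-05). Cyp3a11, a target of the pregnane X receptor, fell in the same 4 genotypes, with a change of −3.45 ± 0.29 in control livers (adjusted p = 5.86e-07). Of the 9 loci of this list, 1 rose and 3 fell in Jnk1Jnk2 livers on high fat as deposited (51.2% of all loci called) and with the length trend subtracted (33.4%). Ahr, the dioxin receptor gene, fell by 1.23 ± 0.12 (adjusted p = 4.35e-07), and by 0.79 with the trend subtracted.

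Across the 24 libraries the loci most like each gene, by Pearson correlation of log2(FPKM + 1), were mostly outside the pathway. The nearest were Maf for Nfe2l2 (r = 0.835), Dcun1d2 for Gclc (r = 0.901), Gpr125 for Gclm (r = 0.924) and Serpine2 for Gsta2 (r = 0.851). For Nqo1 it was 2610044O15Rik (r = 0.828), for Gstm3 Fam108c (r = 0.76) and for Gstm2 Khk (r = 0.87), the gene of ketohexokinase. Gstm1 was nearest to Gstm3 (r = 0.691), and Gsta4 had no locus above r = 0.654. Gsta2 and Gstp1 followed each other at r = 0.71, while Gstp1 and Gstm2 ran opposite at r = −0.637. These values describe 24 libraries that fall into 8 groups and differ in depth, so libraries of a group are not independent points.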

How the data were processed

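Total RNA from mouse liver was sequenced in 24 libraries, 3 for each of 8 groups of genotype and diet. The deposited values are FPKM per locus, which the authors made with TopHat, Cufflinks and Cuffdiff on mm10, per the submitters' processing notes. Versions are not given in the sources used here. Most locus starts in the table lie 1 base before the RefSeq start (11035 of 20250 loci compared), so 1 was added to each printed start.

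From these values log2(FPKM + 1) was computed and tested with limma 3.58.1 in R 4.3.3, with a trended variance, over the 10562 of 31027 loci with a mean of at least 1 FPKM, in a model of all 8 groups with 16 residual degrees of freedom. P-values were adjusted by Benjamini-Hochberg over all loci tested, and an adjusted p under 0.05 was a call. The log2(FPKM + 1) scale understates the change of low genes. Tables and figures used Python 3.11.15, pandas 2.3.3, numpy 2.4.6, scipy 1.17.1 and matplotlib 3.10.9. For the length trend, each library's deviations were fitted by loess (span 0.5) to the longest protein-coding transcript of GENCODE vM21, over the 10194 loci (96.5%) that had one, and the fit was subtracted. The limma fit, without the length trend, was also run on simulated data, and the outcome is not given here. Depth is unknown except relative to the deepest library. An exact permutation test of 3 against 3 libraries cannot go below 0.1, so no such test is given.

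Genes outside the 10 were mostly named from those that a rule selected. It took the called loci with the 2 largest rises and 2 largest falls of each list in each comparison. It also took the 3 loci most like each of the 10. Not all that it selected are named. The 10 genes and the lists were chosen with earlier results of these data known. Alternatives were pseudocounts of 0.1 and 0.5, a minimum of 5 FPKM or none, median-of-ratios size factors, quantile scaling, array weights, a replicate block, fits of the groups compared alone, the length trend and leaving out each library. Summing Gstp1 with Gstp2 and leaving out the 3 high fat Jnk1Jnk2 libraries were added after seeing the data.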

Additional observations from a re-analysis of the deposited data

Results flagged for a closer look

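The response of Gsta2 to diet differed between genotypes by a test of the difference itself. The interaction of diet with Jnk1Jnk2 was 1.17 ± 0.34 on the log2(FPKM + 1) scale (SE; limma, adjusted p = 0.0135): the knockout minus control difference was 0.28 on high fat (−0.19 with the length trend subtracted) and −0.89 on chow. It stayed between 1.00 and 1.45 and passed with each of the 12 libraries left out, and with the length trend subtracted it was 0.62 and did not pass (adjusted p = 0.242). The interaction of diet with Jnk2 was 1.44 ± 0.34 (adjusted p = 0.0147): the difference was 0.71 on high fat and −0.73 on chow. It stayed between 1.32 and 1.68 and passed with each of the 12 libraries left out. Both contrasts use the same 6 control libraries. Gsta2 shares 63.5% of its 50-base windows with other alpha class transcripts, and the part of those genes in its level was not tested.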

How the results depend on the processing

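No called change of the 10 genes turned its direction under any alternative run, but uncalled ones did, among them Gsta2 in high fat Jnk1Jnk2 against control (0.28, and −0.19 with the length trend subtracted). Over all genes, comparisons and settings, 2394 changes kept their side of the threshold, 52 crossed to a call and 31 lost one. Array weights raised the number of the 10 genes called to 2 for chow Jnk1Jnk2, 1 for chow Jnk1 and 4 for high fat Jnk2 against control (0 as reported in each), to 5 for diet in Jnk1 (2 reported) and 5 in Jnk2 (1 reported), and to 2 and 3 for the interactions with Jnk1Jnk2 and Jnk2 (1 each). Quantile scaling gave 5 for diet in Jnk1Jnk2 (3 reported), 2 for diet in Jnk2 and 2 for the Jnk1Jnk2 interaction. A minimum of 5 FPKM, which drops Gsta2, gave 1 for diet in control, 1 in Jnk1 and 0 for the Jnk1Jnk2 interaction, and no minimum gave 1 for diet in Jnk1Jnk2. Fits of the groups compared alone gave 0 for diet in Jnk1 and 2 in Jnk2. Without the high fat Jnk1Jnk2 libraries high fat Jnk2 against control had 1, Gsta2. With the length trend subtracted chow Jnk1 against control had 1 and the Jnk1Jnk2 interaction 0, and the same with the replicate block added. The replicate block alone left every count as it was, 4 in high fat Jnk1Jnk2 against control. Same-numbered libraries did not deviate together on average (mean r = −0.0158 over 84 pairs, from −0.26 to 0.329). Other pairs had a mean r of 0.00778, from −0.233 to 0.293. These values over all loci cannot exclude pairing of some groups or at some loci. With a library left out the counts were 3 to 4 for high fat Jnk1Jnk2, 0 to 1 for chow Jnk1, 0 to 1 for high fat Jnk1 and 0 to 2 for high fat Jnk2 against control, 0 to 2 for diet in Jnk1Jnk2, 1 to 3 in Jnk1 and 1 to 4 in Jnk2, and 1 to 2 for each of the interactions with Jnk1Jnk2 and Jnk2.

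Over all loci, high fat Jnk1Jnk2 against control had 2072 higher and 3338 lower, against 2783 and 2815 with size factors and 3400 in all with the length trend subtracted (5410 reported). Size factors gave 1295 higher and 1201 lower for diet in Jnk2 (2076 and 675 reported), 917 and 1008 in control (1063 and 654) and 847 and 912 in Jnk1 (974 and 614). Array weights gave 447 loci for chow Jnk1Jnk2 (17 reported), 466 for chow Jnk2 (48), 716 for high fat Jnk1 (24), 2824 for high fat Jnk2 (1311), 3067 for diet in control (1717), 4570 in Jnk2 (2751) and 2375 for the Jnk2 interaction (1005). Fits of the groups compared alone gave 7 for chow Jnk1Jnk2, 56 for chow Jnk1 (232), 2 for chow Jnk2, 6 and 126 for high fat Jnk1 and Jnk2, 945 and 1687 for diet in Jnk1 (1588) and Jnk2, and 1 and 655 for the Jnk1 (0) and Jnk2 interactions. The length trend left 2093 for the Jnk1Jnk2 interaction (3689) and gave 352 for chow Jnk1. A minimum of 5 FPKM, which tests fewer loci, gave 3509 for high fat Jnk1Jnk2 and 3898 and 1662 for diet in Jnk1Jnk2 (6014) and Jnk2. Chow Jnk2 also had 20 with the replicate block, 31 with a pseudocount of 0.1 and 25 by size factors. High fat Jnk1 also had 15 with a minimum of 5 FPKM, 63 by quantile scaling, 55 by size factors and 38 under the replicate block. With a library left out, chow Jnk1Jnk2 had 9 to 13, chow Jnk1 96 to 199 and chow Jnk2 6 to 27. High fat Jnk1 then had 10 to 36 and high fat Jnk2 855 to 1408. For diet the counts were 1050 to 1619 in control, 986 to 1550 in Jnk1 and 1727 to 2969 in Jnk2. The Jnk2 interaction had 509 to 1337. Where not given, the causes were not tested. Because absolute depth is unknown, how far few reads limit the low genes Gsta2, Gstm3 and Nqo1 cannot be judged.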
